A study of Mus musculus with 9 samples.

Results

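Scavenger and phagocytic receptors are surface and lysosomal proteins with which monocytes and macrophages bind modified lipoproteins, microbes, glycoproteins and dying cells. The set described here holds 8 genes, Stab1, Mrc1, Msr1, Marco, Cd36, Cd68, Scarb1 and Scarb2, picked by their symbols out of 55367 in the count tables. They were chosen for what they do, with earlier results of these data known, and no cutoff on a measured value was used. All 8 symbols were found in every library.

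Monocytes of adult mice were kept for 4 h with P7 platelets, with adult platelets or with a control buffer alone, and were washed before their polyadenylated RNA was sequenced. P7, written Neoplts in the sample titles, is the usual short form of postnatal day 7, so the platelet donors differed in age while the monocytes were adult in all 3 groups. Each group holds 3 libraries, 9 in all. No label gives the strain, sex, genotype or source tissue of the monocytes or platelets, or says whether libraries came from separate cultures or animals, and every p-value therefore covers the spread of these libraries alone, which may be technical. Total counts per library ran from 29687341 to 37065564, and 13707 genes had enough counts to be tested. Platelets carry RNA, and platelet transcripts were measured in the libraries of the washed monocytes. The 19 platelet and megakaryocyte transcripts summed to between 1845 and 2111 CPM (counts scaled to a fixed library total) in P7 libraries, 961.5 to 1784 in adult platelet libraries and 29.6 to 33.6 in control libraries. Red cell transcripts, 9 in number and led by the beta globin Hbb-bs, took 4.37 to 5.52% of counts in P7 libraries, 0.0499 to 0.180% in adult platelet libraries and 0.00113 to 0.00143% in control libraries. Monocyte markers were present throughout: the 15 listed, led by the lysozyme gene Lyz2, held 2.91 to 3.46% of counts in P7 libraries, 3.15 to 3.65% in adult platelet libraries and 3.01 to 3.28% in control libraries, and none was at 0 in any group. Igkc, an immunoglobulin transcript of B and plasma cells, set 4 libraries apart, at 606 CPM in P7 replicate 1, 772 and 410 in adult platelet replicates 1 and 3 and 668 in control replicate 1, against 123 to 172 in the other 5. In bulk RNA, fewer cells of a type and less RNA per cell cannot be told apart.

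Scavenger receptors fall into classes by structure. Class A receptors such as MSR1 and MARCO are trimeric proteins with collagen-like stalks that bind polyanions and bacteria, class B receptors such as CD36, SCARB1 and SCARB2 cross the membrane at both ends and handle lipids, and CD68 is a heavily glycosylated protein of late endosomes and lysosomes. Stabilin 1 (Stab1) and the mannose receptor (Mrc1) are large endocytic receptors typical of tissue macrophages and sinusoidal endothelium. In the monocyte lineage most of these genes are switched on further as cells turn into macrophages.

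Promoter sequences of 6 of the 8 genes were matched in RefSeq tables of build GRCm38.p6. The 3 printed here belong to Stab1, which had the largest rise among the receptors with counts in all groups, to Marco, which had more than a few counts only in P7 libraries, and to Cd68, a lysosomal receptor that differed little. Each window covers the 250 bases before the gene's start, 5′ to 3′ on the gene's strand, which is the minus strand for all 3. The windows lie at chr14:31168642-31168891 for Stab1, chr1:120505025-120505274 for Marco and chr11:69666171-69666420 for Cd68. Capitals mark matches to the motifs that were searched on both strands.
Stab1: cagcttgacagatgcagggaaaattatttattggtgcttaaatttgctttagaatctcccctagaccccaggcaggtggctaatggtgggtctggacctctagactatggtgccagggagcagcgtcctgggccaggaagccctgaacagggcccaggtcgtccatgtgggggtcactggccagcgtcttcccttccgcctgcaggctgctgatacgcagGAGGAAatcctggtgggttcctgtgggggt
Marco: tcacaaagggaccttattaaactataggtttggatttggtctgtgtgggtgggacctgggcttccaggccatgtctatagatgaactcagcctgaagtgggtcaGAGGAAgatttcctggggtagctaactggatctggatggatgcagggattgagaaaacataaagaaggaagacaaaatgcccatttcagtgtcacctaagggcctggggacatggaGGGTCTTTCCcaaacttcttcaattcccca
Cd68: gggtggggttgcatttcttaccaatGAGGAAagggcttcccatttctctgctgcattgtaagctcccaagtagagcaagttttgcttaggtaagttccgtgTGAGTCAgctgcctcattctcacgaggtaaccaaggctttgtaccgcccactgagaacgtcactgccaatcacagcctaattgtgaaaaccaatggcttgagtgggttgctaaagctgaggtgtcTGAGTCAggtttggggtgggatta
The motifs were the core recognised by the myeloid factor PU.1 (GAGGAA), the AP-1 site (TGANTCA), the lysosomal CLEAR E-box (CACGTG), an NF-kB site (GGG, any 2 bases, TTTCC), the nuclear receptor half-site (AGGTCA) and an interferon response element (GAAA, any 2 bases, GAAA). No matches overlapped one another in the 3 windows. The Stab1 window held the PU.1 core 30 bases before the start. The Marco window held that core at 146 bases and the NF-kB motif at 30 bases, read as GGGTCTTTCC. The Cd68 window held the PU.1 core at 225 bases and the AP-1 motif at 149 and 24 bases, both as TGAGTCA. Among 32807 promoter windows of the same length, 23.3% held the PU.1 core, 6.75% the AP-1 motif, 6.02% the CLEAR motif, 1.41% the NF-kB motif, 14% the half-site and 2.97% the interferon element. These are letter matches, and no binding was measured.

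**Figure D1:**
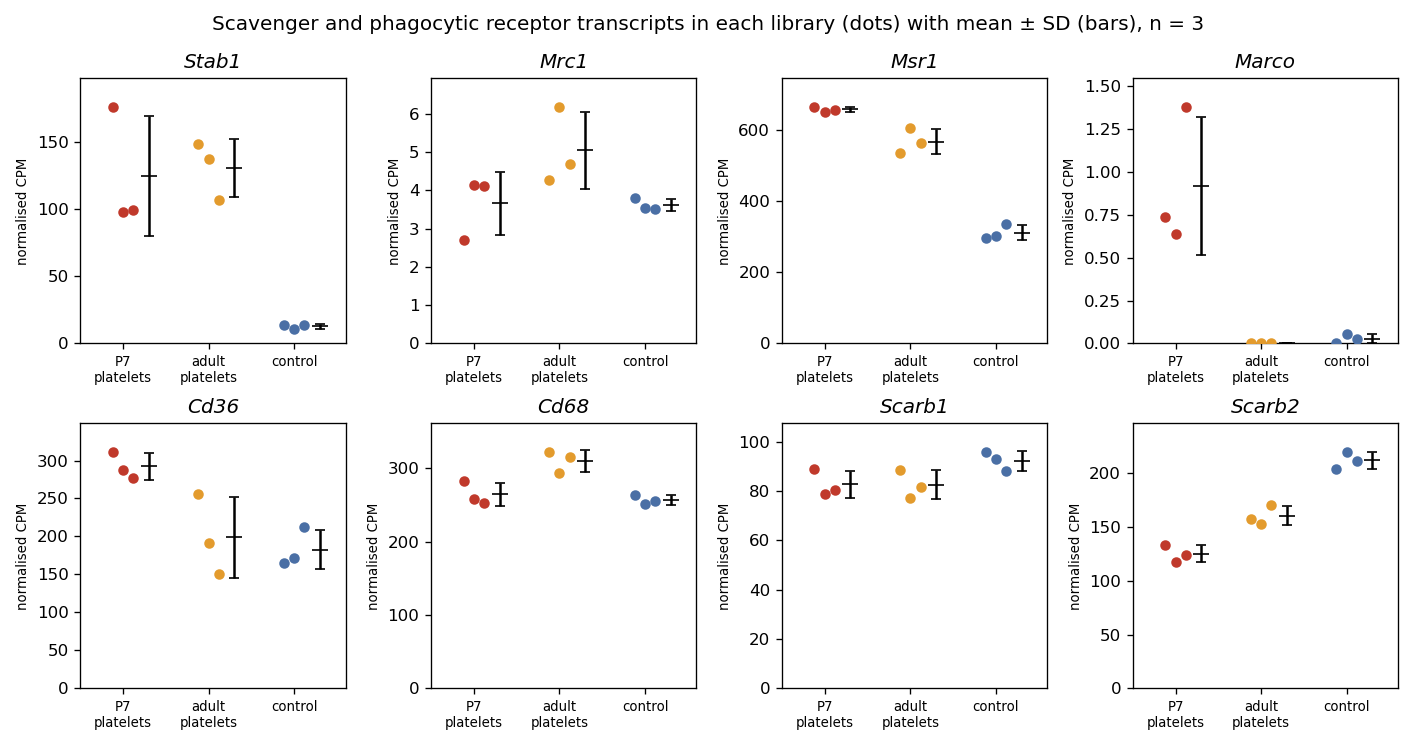
Normalised CPM (vertical axes, linear, each starting at 0) of the 8 receptor transcripts in every library, with P7 platelets in red, adult platelets in orange and control in blue. Dots are libraries and bars are means ± SD (n = 3). Stab1 and Msr1 lie above control with both kinds of platelet, Marco with P7 platelets only, and Scarb2 lies lowest with P7 platelets and highest in control.

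The comparison with control asks how each receptor transcript stood after contact with platelets of either age. The comparison of P7 with adult platelets sets the 2 platelet groups side by side. Donor age cannot be told apart there from the red cell and platelet RNA given above, which also differed between these groups. Levels below are normalised CPM, that is counts scaled to a common library size with TMM factors, and log2 fold changes carry standard errors and p-values of the quasi-likelihood test in edgeR, adjusted over all 13707 genes. A gene is said to rise or fall only where its adjusted p was below 0.05. All 8 receptor genes passed the filter on low counts, but Marco only through its counts in P7 libraries, so it is left out of the counts here. With P7 platelets 4 of the other 7 changed against control, 3 higher and 1 lower, while 59.2% of all tested genes changed in that comparison, 29.9% higher and 29.3% lower. With adult platelets 4 of the 7 changed against control, 3 higher and 1 lower, beside 26.4% of all genes (14.3% higher and 12.0% lower). Between P7 and adult platelets 4 of the 7 differed, 2 higher and 2 lower with P7 platelets, beside 39.6% of all genes (19.7% higher and 19.8% lower). The libraries were fully separated in CPM for 4 of the 7 between P7 platelets and control, 5 between adult platelets and control and 5 between P7 and adult platelets, beside 69.1%, 42.7% and 49.0% of all tested genes. With 7 genes, none of these shares is read as particular to the set. With upper-quartile scaling, 39.5% of all calls were higher for P7 platelets over control, against 50.5% with TMM, and 37.2% for P7 over adult platelets, against 49.9%. Both comparisons with control use the same 3 control libraries, so they are not independent of each other.

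Stab1 rose with both kinds of platelet, by the largest fold of the set apart from Marco. Its product, stabilin 1, takes up modified lipoproteins and matrix proteins and binds the phosphatidylserine of dying cells. The gene lies on chromosome 14 at 31139013 to 31168641 (GRCm38, GENCODE M21, minus strand). Stab1 stood at 176, 97.8 and 99.4 CPM in the 3 P7 libraries, at 148, 138 and 107 CPM in the adult platelet libraries, and at 13.6, 10.7 and 13.7 CPM in the control libraries. Every library with platelets lay above every control library, and the P7 and adult platelet libraries overlapped, with P7 replicate 1 the highest of all. The means were 124 ± 44.8 with P7 platelets, 131 ± 21.5 with adult platelets and 12.6 ± 1.69 in control (SD, n = 3 each). The log2 fold change over control was 3.30 ± 0.25 with P7 platelets (adjusted p = 7.09e-06) and 3.37 ± 0.25 with adult platelets (adjusted p = 3.26e-05). Between P7 and adult platelets the difference was -0.07 ± 0.22 with a 95% interval of -0.57 to 0.43 (adjusted p = 0.828). P7 replicate 1 is also 1 of the 4 libraries with high Igkc, and over the fits that left out single libraries the P7 minus adult difference ran from -0.41 to 0.07, with adjusted p from 0.0520 to 0.948.

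Stab1 shares 112 exon bases with Nt5dc2, a neighbouring gene on the opposite strand. The library kit marks strand, but the counting setting is not stated, so reads in those bases could be counted for either gene. Nt5dc2 averaged 36.1 ± 9.76 CPM with P7 platelets, 49.4 ± 9.82 with adult platelets and 17.4 ± 3.43 in control. Its rise over control was smaller than that of Stab1, at 1.05 ± 0.22 with P7 platelets (adjusted p = 0.00227) and 1.5 ± 0.21 with adult platelets (adjusted p = 0.00126). Stabilin 1 also marks sinusoidal endothelium. The 12 endothelial markers summed to 15.6 to 16.6 normalised CPM in P7 libraries, 6.09 to 11.0 in adult platelet libraries and 1.24 to 1.60 in control libraries. The sum was thus higher with both kinds of platelet, and higher with P7 than with adult platelets, where Stab1 overlapped. Of the 12, 11 had counts in P7 libraries, 10 in adult platelet libraries and 9 in control libraries. With P7 platelets 10 had a higher and 2 a lower mean than in control, and with adult platelets 10 had a higher mean and none a lower one. Tek and Robo4 were among these last 10 on equal raw counts, 2 and 1 in each group. All libraries were higher than control for 7 markers with P7 platelets and 5 with adult platelets, and lower for none. Of all tested genes, 69.1% and 42.7% were separated in either direction. The most abundant was Esam, which platelets express too, at 7.61 ± 1.06 CPM with P7 platelets, 5.37 ± 1.57 with adult platelets and 0.0682 ± 0.0158 in control. Without Esam the sums were 7.80 to 8.93 in P7 libraries, 2.21 to 4.00 in adult platelet libraries and 1.165 to 1.55 in control libraries. Next in P7 libraries came Kdr, averaging 3.52 CPM with P7 platelets, 0.603 with adult platelets and 0.196 in control. Clec4g followed at 2.53, 0.536 and 0.265 CPM in the same order of groups. The related receptor Stab2, an endothelial marker, averaged 0.171 ± 0.0265 CPM with P7 platelets, 0.158 ± 0.0436 with adult platelets and 0.0601 ± 0.0408 in control. Cdh5, the VE-cadherin gene, averaged 0.726 ± 0.117 CPM with P7 platelets, 0.535 ± 0.384 with adult platelets and 0.288 ± 0.0987 in control. Emcn and Ptprb had 2 counts and 1 count over the P7 libraries and were at 0 in all adult platelet and control libraries, while Robo4 was at 0 in P7 libraries and had 1 count in each of the other groups. The part of endothelial RNA in the Stab1 result was not tested.

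Mrc1, the gene of the mannose receptor CD206, was scarce and gave no call in any comparison. The receptor binds mannose-ending glycans of microbes and of the body's own glycoproteins and is a common marker of tissue and alternatively activated macrophages. Mrc1 lies on chromosome 2 at 14229392 to 14332057. Its level was 2.71, 4.15 and 4.11 CPM in P7 libraries, 4.27, 6.18 and 4.69 CPM in adult platelet libraries and 3.80, 3.54 and 3.52 CPM in control libraries. Adult platelet libraries lay above all libraries of the other groups, by a small margin, while P7 and control libraries overlapped. The log2 fold change over control was 0.01 ± 0.19 with P7 platelets (95% interval -0.42 to 0.45, adjusted p = 0.962) and 0.48 ± 0.19 with adult platelets (0.05 to 0.91, adjusted p = 0.0949). Between P7 and adult platelets it was -0.47 ± 0.19 (-0.90 to -0.03, adjusted p = 0.0835). The difference between adult platelets and control passed without P7 replicate 1 (adjusted p = 0.0422) and with the Igkc level as a covariate (adjusted p = 0.0266), in a range of 0.0266 to 0.358 over the 20 alternatives. The P7 minus adult difference passed with upper-quartile scaling (adjusted p = 0.0471) and with that covariate (adjusted p = 0.0220), in a range of 0.0220 to 0.276.

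Msr1, which encodes the class A scavenger receptor that takes up acetylated and oxidised LDL, rose with both kinds of platelet. It lies on chromosome 8 at 39581685 to 39642673 on the minus strand. Msr1 stood at 664, 650.5 and 655 CPM in P7 libraries, 533, 604 and 562 CPM in adult platelet libraries, and 296, 301 and 334 CPM in control libraries. The 3 groups did not overlap, and P7 libraries were the highest and the closest together. Relative to control the log2 fold change was 1.08 ± 0.06 with P7 platelets (adjusted p = 2.03e-06) and 0.87 ± 0.06 with adult platelets (adjusted p = 3.26e-05), and both calls held in every alternative that was run. The P7 over adult difference was 0.21 ± 0.06 (95% interval 0.07 to 0.36, adjusted p = 0.0259). That last call did not hold once adult platelet replicate 1 or 3 or any 1 of the P7 replicates was left out (adjusted p = 0.0578 to 0.0713), with upper-quartile scaling (adjusted p = 0.0908), without a filter (adjusted p = 0.0745) and against a fold of 1.2 (adjusted p = 0.939), over a range of 0.00469 to 0.939. Without TMM scaling, Msr1 ran from 578 to 599.6 CPM in P7 libraries, from 553 to 614 in adult platelet libraries and from 325 to 356 in control libraries, so the platelet groups then overlapped.

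Marco was close to absent except with P7 platelets, and even there its counts were few. MARCO is the other class A receptor of the set, a bacteria- and particle-binding receptor of alveolar and splenic marginal zone macrophages that inflammatory stimuli induce in other macrophages. The gene lies on chromosome 1 at 120474538 to 120505024. The raw counts were 22, 17 and 43 in P7 libraries, 0, 0 and 0 in adult platelet libraries and 0, 2 and 1 in control libraries. Every P7 library exceeded every other library, and adult platelet and control libraries overlapped at or under the floor of 3 counts over a group. In normalised terms the P7 mean was 0.919 ± 0.403 CPM against 0.0259 ± 0.0263 in control. The pooled counts, 82 with P7 platelets against 3 in control, each over the summed TMM-scaled library sizes of its group, gave a ratio of 36.7 with a 95% counting interval of 12.1 to 182. Against adult platelets, with no count, P7 libraries were at least 31.5-fold higher, taking a floor of 3 counts over the group. Because only P7 counts brought Marco past the filter, it had to differ once it was tested, so no p-value is given for it.

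Markers of tissue macrophages, the cells best known for Marco, were present. Of 18 such markers, 16 had counts in P7 libraries, 16 in adult platelet libraries and 15 in control libraries. They summed to 488 to 514 normalised CPM in P7 libraries, 272 to 299.9 in adult platelet libraries and 331 to 354 in control libraries. Without Adgre1 the sums were 108.5 to 111 in P7 libraries, 85.1 to 115 in adult platelet libraries and 77.1 to 88.7 in control libraries, so P7 and adult platelet libraries overlapped. Vsig4 and Clec4f, markers of liver Kupffer cells, were at 0 in every group, and Lyve1 was at 0 in control. Of the 18, 14 had a higher and 2 a lower mean with P7 platelets than in control, and in 12 and 1 of these the libraries were fully separated, beside the 69.1% of tested genes separated in either direction. Between P7 and adult platelets 12 had a higher and 4 a lower mean with P7 platelets. Most of the sum was Adgre1, the F4/80 gene that blood monocytes also express, at 390 ± 14.3 CPM with P7 platelets, 187 ± 26.8 with adult platelets and 262 ± 6.99 in control. Timd4, Spic, Siglec1 and Cd163 were picked out of that list after their values were seen, the first 3 highest and Cd163 lowest with P7 platelets. Timd4 averaged 1.14 ± 0.529 CPM with P7 platelets, 0.243 ± 0.170 with adult platelets and 0.0599 ± 0.0303 in control. Siglec1 averaged 7.68 ± 0.831 CPM with P7 platelets, 1.43 ± 0.612 with adult platelets and 1.43 ± 0.237 in control. Spic averaged 9.93 ± 2.04 CPM with P7 platelets, 3.28 ± 1.10 with adult platelets and 3.40 ± 1.43 in control. Cd163, the haemoglobin scavenger receptor, averaged 1.77 ± 0.119 CPM with P7 platelets, 2.81 ± 1.23 with adult platelets and 2.31 ± 0.283 in control. The part of such cells in the Marco result was not tested.

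**Figure D2:**
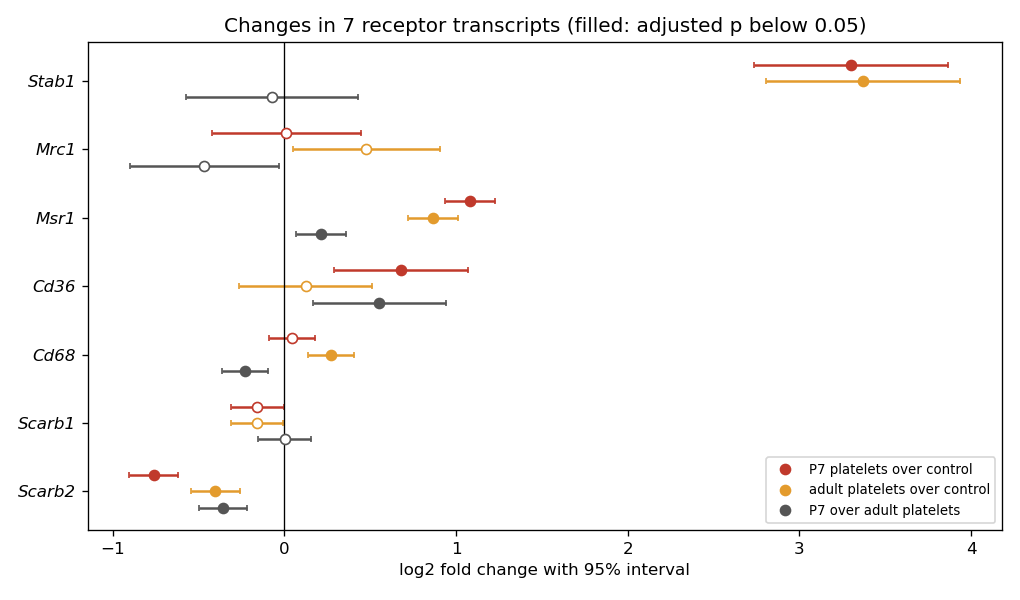
Log2 fold changes (horizontal axis, dots) with 95% intervals (lines) of 7 receptor transcripts for P7 platelets over control (red), adult platelets over control (orange) and P7 over adult platelets (grey). Filled dots have an adjusted p below 0.05. Marco is left out because its counts in the other groups are at or under the floor. Stab1 stands far right of 0 in both comparisons with control, and Scarb2 is left of 0 in all 3 comparisons.

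Cd36 was higher with P7 platelets than in control, while adult platelet libraries spread over the range of control. CD36, a class B receptor, imports long-chain fatty acids, takes up oxidised LDL and binds thrombospondin. It is also an abundant protein of platelets, so its RNA here can come from the monocytes or from the platelets. Cd36 lies on chromosome 5 at 17781690 to 17888801. Its level was 311, 288 and 277 CPM in P7 libraries, 256, 191 and 150.2 CPM in adult platelet libraries and 164, 171 and 212 CPM in control libraries. P7 libraries were all above the rest, and adult platelet libraries lay on both sides of the control libraries. The log2 fold change over control was 0.68 ± 0.17 with P7 platelets (adjusted p = 0.00755) and 0.12 ± 0.17 with adult platelets (95% interval -0.26 to 0.51, adjusted p = 0.636). The direction with adult platelets was not settled, with log2 fold changes from -0.10 to 0.29 over the fits that left out single libraries.

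Between P7 and adult platelets Cd36 differed by 0.55 ± 0.17 (95% interval 0.17 to 0.94, adjusted p = 0.0296). It did not pass when adult platelet replicate 2 or 3 or any 1 of the P7 replicates was left out (adjusted p = 0.0584 to 0.0738) and against a fold of 1.2 (adjusted p = 0.116), over a range of 0.00323 to 0.116. Without TMM scaling Cd36 spanned 244 to 281 CPM in P7 libraries, 158 to 265 in adult platelet libraries and 181 to 226 in control libraries, where P7 and adult platelet libraries overlapped. Among the adult platelet libraries, the replicate with the highest Cd36, replicate 1, also had the most erythroid RNA, with erythroid transcripts at 1803 CPM against 643 and 499.5 in replicates 2 and 3. Platelet transcripts followed another order there, at 1606, 961.5 and 1784 CPM in replicates 1, 2 and 3. Adipocyte and muscle markers, for other cells rich in CD36, summed to at most 1.75 CPM in any library. These marker sums are CPM of the library total, without TMM factors. The P7 over control call held with platelet, erythroid and mitochondrial transcripts taken out of the table before scaling. The part of platelet or erythroid RNA in the Cd36 level itself was not tested.

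**Figure D3:**
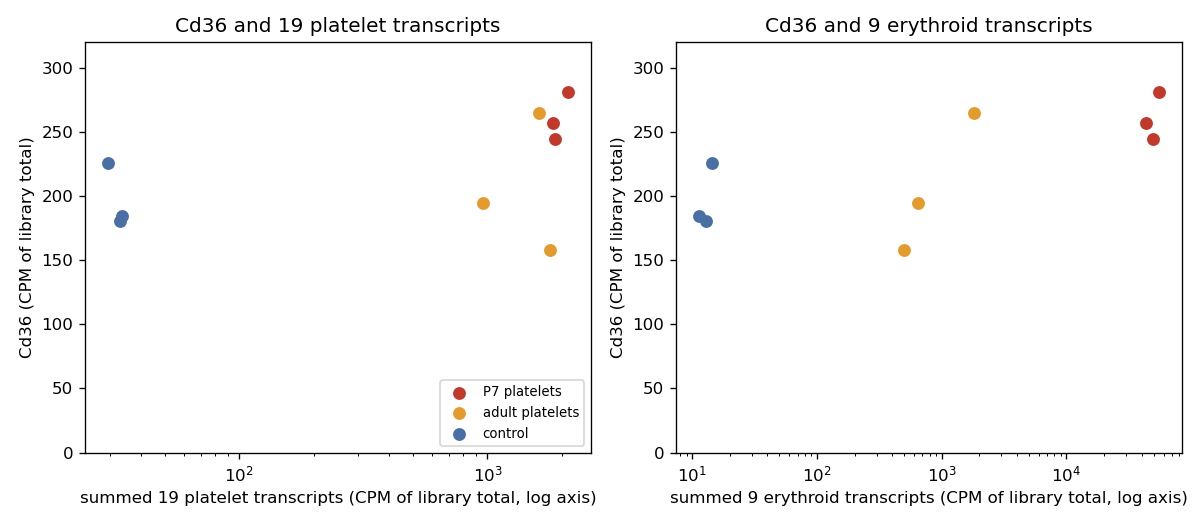
Cd36 (vertical axes, CPM of the library total, linear) against the summed level of 19 platelet transcripts (left) or 9 erythroid transcripts (right), both on log axes, for each of the 9 libraries. P7 libraries are red, adult platelet libraries orange and control libraries blue. Adult platelet libraries hold 961.5 to 1784 CPM of platelet transcripts and span 158 to 265 CPM of Cd36, a range that takes in all 3 control libraries.

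Scarb1 and Scarb2, the other class B genes of the set, stood level or lower after contact with platelets. Scarb1 encodes SR-BI, the receptor through which cells exchange cholesterol with HDL, and lies on chromosome 5 at 125277087 to 125341094. Scarb1 stood at 88.9, 78.9 and 80.3 CPM in P7 libraries, 88.7, 77.3 and 81.7 CPM in adult platelet libraries, and 95.9, 92.8 and 88.0 CPM in control libraries. All groups overlapped, though control replicates 1 and 2 lay above all platelet libraries. The log2 fold change was -0.16 ± 0.07 with P7 platelets (95% interval -0.31 to -0.003, adjusted p = 0.0736) and -0.16 ± 0.07 with adult platelets (-0.31 to -0.01, adjusted p = 0.115), both over control. P7 and adult platelets differed by 0.003 ± 0.07 (-0.15 to 0.16, adjusted p = 0.978). With the replicate number as a block the P7 difference from control was -0.16 ± 0.05 and passed (adjusted p = 0.0175), which made 6 receptor genes called with Marco included. It also passed in 5 other alternatives, among them upper-quartile scaling (adjusted p = 0.0117) and the fits without adult platelet replicate 1 (adjusted p = 0.0469) or P7 replicate 1 (adjusted p = 0.0287), over a range of 0.00948 to 0.957.

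Scarb2 fell with both kinds of platelet, and further with P7 platelets. Its product, LIMP-2, is a membrane protein of lysosomes. The gene lies on chromosome 5 at 92441314 to 92506833. Scarb2 stood at 134, 118 and 124 CPM in P7 libraries, 157, 153 and 170.0 CPM in adult platelet libraries, and 204, 220 and 211 CPM in control libraries. The 3 groups did not overlap, with P7 libraries lowest and control libraries highest. The log2 fold change over control was -0.76 ± 0.06 with P7 platelets (95% interval -0.90 to -0.62, adjusted p = 1.14e-05) and -0.40 ± 0.06 with adult platelets (-0.54 to -0.26, adjusted p = 0.00207). P7 libraries were lower than adult platelet libraries, with a P7 minus adult difference of -0.36 ± 0.06 (-0.50 to -0.21, adjusted p = 0.00206). Tested against a fold of 1.2, the adult platelet difference from control (adjusted p = 0.0725, over a range of 3.02e-07 to 0.0725) and the P7 minus adult difference (adjusted p = 0.112, over a range of 1.13e-05 to 0.112) did not pass.

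Cd68, which encodes the macrosialin protein of late endosomes and is a routine marker of monocytes and macrophages, differed little. It lies on chromosome 11 at 69664213 to 69666153. Cd68 stood at 283, 258 and 253 CPM in P7 libraries, 323, 294 and 315 CPM in adult platelet libraries, and 264, 251 and 256 CPM in control libraries. Adult platelet libraries lay above the rest, and P7 and control libraries overlapped. Cd68 rose with adult platelets by a log2 fold change of 0.27 ± 0.06 over control (adjusted p = 0.00953), while with P7 platelets the change was 0.04 ± 0.06 (95% interval -0.09 to 0.18, adjusted p = 0.568). P7 libraries were lower than adult platelet libraries, with a P7 minus adult difference of -0.23 ± 0.06 (adjusted p = 0.0128), a call lost without P7 replicate 2 (adjusted p = 0.0553) or 3 (adjusted p = 0.0586), over a range of 0.00244 to 0.848. Neither call passed against a fold of 1.2 (adjusted p = 0.688 for adult platelets with control, over a range of 0.000204 to 0.688). The place of P7 libraries relative to control depended on scaling. Without TMM factors Cd68 was at 223 to 255 CPM in P7 libraries, 299 to 335 in adult platelet libraries and 271 to 290.5 in control libraries, where P7 and control libraries no longer overlapped.

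Ratios of raw counts within a library do not depend on scaling, and they were taken after the levels had been seen. The ratio of Msr1 to Scarb2 counts was 4.97 to 5.53 in P7 libraries, 3.31 to 3.94 in adult platelet libraries and 1.37 to 1.58 in control libraries. The groups did not overlap, and for 3 against 3 libraries the smallest exact two-sided permutation p is 0.1. The ratio of Scarb2 to Cd68 was 0.456 to 0.490 in P7 libraries, 0.488 to 0.539 in adult platelet libraries and 0.773 to 0.876 in control libraries. The platelet groups met at their edges in this ratio and both lay under control.

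Per kilobase of annotated exon, Cd68 was the most abundant of the 8 transcripts in every group. Its level was 211 ± 12.5 CPM per kb with P7 platelets, 247 ± 11.9 with adult platelets and 204 ± 5.36 in control. In P7 libraries the order ran on with Msr1 at 103.5 ± 1.08, Cd36 at 81.4 ± 4.88, Scarb2 at 19.9 ± 1.28, Stab1 at 12.1 ± 4.35 and Scarb1 at 9.73 ± 0.640 CPM per kb, and ended with Mrc1 at 0.574 ± 0.129 and Marco at 0.478 ± 0.209. The neighbours Stab1 and Scarb1, and Mrc1 and Marco, overlapped over the P7 libraries. Adult platelet libraries kept that order, with Msr1 at 89.3 ± 5.58, Cd36 at 55.4 ± 14.8, Scarb2 at 25.5 ± 1.40 and Stab1 and Scarb1 overlapping at 12.7 ± 2.09 and 9.71 ± 0.681, above Mrc1 at 0.792 ± 0.158, and with no Marco. In control, Cd36 and Msr1 overlapped at 50.9 ± 7.19 and 49.0 ± 3.23, above Scarb2 at 33.7 ± 1.24 and Scarb1 at 10.9 ± 0.471, and Stab1 stood at 1.23 ± 0.164, above Mrc1 at 0.569 ± 0.0245 and Marco at 0.0135 ± 0.0136. Stab1 was thus next to Scarb1 in level in libraries with platelets and far under it in control. With the longest transcript as the length, Scarb1 at 26.7 CPM per kb lay above Stab1 at 15.5 in P7 libraries, and Msr1 at 85.4 above Cd36 at 53.7 in control.

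**Figure D4:**
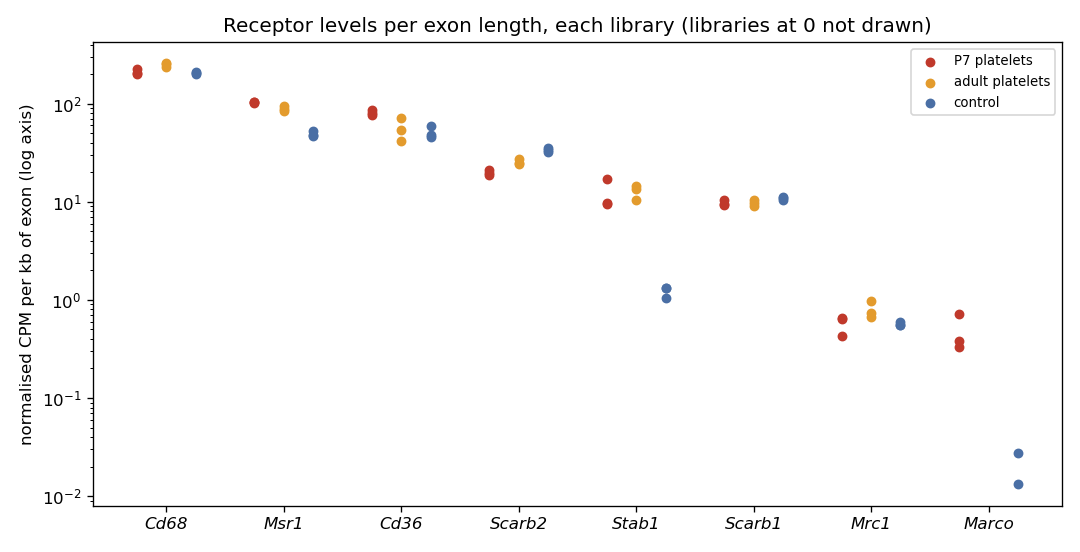
Levels of the 8 receptor transcripts in normalised CPM per kb of exon (vertical axis, log scale), 1 dot per library, in P7 (red), adult platelet (orange) and control (blue) libraries. Libraries at 0 are not drawn, which leaves no adult platelet library for Marco. Cd68 is highest in all groups, and Stab1 is the receptor whose control dots stand furthest under its platelet dots apart from Marco.

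Genes whose log2 CPM profile over the 9 libraries was most like that of each receptor were found by the root mean square difference of profiles centred on their mean. For Scarb2 these were Snrk (0.0453), Tmem94 (0.0462) and Zfp128 (0.0476), and for Msr1 they were Prkar2b (0.0762), Mdfic (0.0862) and Sh3bp2 (0.0881). Neither Stab1 nor Marco had a near neighbour. The closest to Stab1 were mt-Rnr2 (0.325), Acer2 (0.34) and Mfap3l (0.352). Those closest to Marco, Mx2 (0.371), Slfn5 (0.39) and Mx1 (0.394), were farther still, and outside P7 libraries its profile rests on counts at or near 0. Cd36 lay nearest to Hyal2 (0.127), Cd68 to Mast2 (0.0321), Scarb1 to Slc25a28 (0.0406) and Mrc1 to LTO1 (0.189). A distance between the 3 group means instead named other genes, sharing 1 of 3 with the first set for Marco and 0 of 3 for the other 7 receptors.

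Related genes were counted in 8 lists, whose medians are given beside those of all tested genes, -0.01 for P7 platelets over control, -0.00 for adult platelets over control and -0.02 for P7 over adult platelets. Of all tested genes, 29.9% rose and 29.3% fell with P7 platelets over control, and 14.3% rose and 12.0% fell with adult platelets. Between P7 and adult platelets 19.7% were higher and 19.8% lower with P7 platelets. The lists were chosen with earlier results known, and none was tested as a set. Other scavenger receptors went both ways. Of the 14 tested, 5 rose and 4 fell with P7 platelets against control (median -0.08), 3 rose and 3 fell with adult platelets (median 0.07), and 5 were higher and 3 lower with P7 than with adult platelets (median 0.09). Cxcl16, the transmembrane chemokine that also acts as a receptor for oxidised LDL, averaged 494 ± 18.8 CPM with P7 platelets, 247 ± 49.98 with adult platelets and 100.4 ± 9.68 in control. Its log2 fold change over control was 2.30 ± 0.14 with P7 platelets (adjusted p = 2.03e-06) and 1.3 ± 0.13 with adult platelets (adjusted p = 0.00024). Lrp1, a large endocytic receptor of many ligands, fell by 0.72 on the log2 scale with P7 platelets (515 ± 133 CPM, against 850.2 ± 100.2 in control, adjusted p = 0.00402).

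Receptors and bridging molecules for dying cells were also mixed, with 12 higher and 8 lower of 25 tested with P7 platelets (median 0.21), 8 higher and 2 lower with adult platelets (median 0.08), each against control, and 8 higher and 8 lower between P7 and adult platelets (median -0.03). Without control replicate 2, 6 genes in place of 10 were called with adult platelets. Axl, a kinase receptor that recognises phosphatidylserine through GAS6, rose by 1.80 ± 0.21 with P7 platelets (79.5 ± 11.2 CPM, against 22.9 ± 6.53 in control, adjusted p = 7.10e-05). Trem2, a lipid-binding receptor of macrophages, fell with P7 platelets (26.1 ± 1.01 CPM, against 59.5 ± 1.68 in control, log2 fold change -1.19 ± 0.10, adjusted p = 1.27e-05). Havcr2, the TIM-3 gene, was highest with adult platelets, at 47.9 CPM with P7 platelets, 133 ± 36.0 with adult platelets and 41.4 ± 9.95 in control (P7 minus adult log2 fold change -1.47 ± 0.22, adjusted p = 0.000992). Itgb3, the integrin beta 3 gene, is a platelet transcript as well, and its rise of 2.50 ± 0.21 with P7 platelets over control stands beside the platelet sums given above.

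In the opsonin receptor list more genes rose than fell. Opsonin receptors bind antibody- or complement-coated particles, but the list also holds C3ar1, C5ar1, Cd14 and Fcer1g, which are not receptors of that kind. All of these rose with P7 platelets over control, by log2 fold changes of 1.06, 1.11, 0.99 and 0.51. Of 11 tested, 7 rose and 2 fell with P7 platelets (median 0.51), and 6 rose and 1 fell with adult platelets (median 0.39), each against control. Between P7 and adult platelets 4 were higher and 2 lower (median -0.03). Fcgr2b, the inhibitory Fc gamma receptor, and Fcgr3, an activating one, moved apart. Fcgr2b averaged 298 ± 11.1 CPM with P7 platelets, 161 ± 12.7 with adult platelets and 111 ± 12.7 in control, and its log2 fold change for P7 platelets over control was 1.42 ± 0.09 (adjusted p = 2.31e-06). Fcgr3 was at 61.8 ± 13.9 CPM with P7 platelets against 215 ± 5.02 in control, a log2 fold change of -1.80 ± 0.18 (adjusted p = 3.13e-05). Among 29 genes of the engulfment machinery, 10 rose and 9 fell with P7 platelets (median -0.00), 7 rose and 4 fell with adult platelets (median 0.01), and 4 were higher and 4 lower in P7 than in adult platelet libraries (median -0.06). For adult platelets with control, 5 engulfment genes in place of 11 were called without control replicate 2 and 6 without control replicate 3. Pik3cd, a phosphoinositide 3-kinase subunit, fell with P7 platelets (243 ± 4.17 CPM, against 419 ± 16.2 in control, log2 fold change -0.78 ± 0.05, adjusted p = 1.95e-06).

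More genes of lysosomal membrane proteins and partners of LIMP-2 fell than rose with P7 platelets. Of 22 tested, 4 rose and 12 fell with P7 platelets (median -0.16), 3 rose and 4 fell with adult platelets (median -0.03), each against control, and 5 were higher and 9 lower with P7 than with adult platelets (median -0.13). The number called with adult platelets was 3 without control replicate 1 or 2 and 4 without control replicate 3, in place of 7, and the 14 calls between P7 and adult platelets became 9 without P7 replicate 2 or 3. The lysosomal channel gene Mcoln1 averaged 37.2 ± 3.24 CPM with P7 platelets and 59.6 ± 2.78 in control (log2 fold change -0.68 ± 0.08, adjusted p = 7.18e-05). The cholesterol exporter gene Npc1 averaged 105 ± 5.93 CPM with P7 platelets and 152 ± 6.22 in control (-0.53 ± 0.08, adjusted p = 0.000318). Against these, 2 transcription factor genes of lysosome formation rose with P7 platelets over control. Mitf rose by 0.89 ± 0.09 (adjusted p = 2.75e-05) and Tfe3 by 0.61 ± 0.07 (adjusted p = 7.69e-05). With adult platelets Mitf fell by 0.36 on the log2 scale (adjusted p = 0.0163), a call lost without control replicate 3 (adjusted p = 0.0646) and against a fold of 1.2 (adjusted p = 0.302), over a range of 0.00221 to 0.302. P7 libraries exceeded adult platelet libraries by 1.24 ± 0.09 (adjusted p = 2.28e-05).

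Lipid handling genes that act downstream of the class B receptors were mixed. Of 25 tested, 12 rose and 6 fell with P7 platelets (median 0.23), 4 rose and 2 fell with adult platelets (median -0.04), each against control, and 12 were higher and 7 lower with P7 than with adult platelets (median 0.12). Nr1h3, the sterol-sensing receptor LXR alpha, rose by 1.31 ± 0.09 with P7 platelets and 0.76 ± 0.09 with adult platelets. Apoe, the lipid carrier apolipoprotein E, and the cholesterol exporter Abcg1 fell with P7 platelets, by log2 fold changes of -1.40 ± 0.08 (adjusted p = 1.52e-06) and -1.47 ± 0.14 (adjusted p = 2.19e-05) over control. Lpl, lipoprotein lipase, was higher with P7 than with adult platelets, at 706 against 90.9 CPM (2.96 ± 0.25, adjusted p = 5.97e-05).

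More of the known regulators of scavenger receptor genes rose than fell with P7 platelets. Of 34 tested, 17 rose and 5 fell against control (median 0.31), and the same counts, 17 higher and 5 lower, were found against adult platelets (median 0.24). Among all tested genes 29.9% rose and 29.3% fell against control, and 19.7% were higher and 19.8% lower against adult platelets. With adult platelets 8 rose and 2 fell against control (median 0.09), with 6 called in place of 10 without control replicate 2. Maf, a macrophage transcription factor, averaged 79.4 ± 6.73 CPM with P7 platelets, 20.3 with adult platelets and 9.91 ± 1.90 in control, with a log2 fold change of 3.00 ± 0.15 for P7 platelets over control (adjusted p = 9.71e-07). Spi1, the gene of PU.1 and named here because that motif was searched in the promoters, rose by 0.71 ± 0.07 with P7 platelets (adjusted p = 3.25e-05) and by 0.24 ± 0.07 with adult platelets (adjusted p = 0.0365) over control.

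Alternative activation genes, among which Mrc1 is usually counted, had the highest median of the 8 lists in both comparisons with control. Of 19 tested, 12 rose and 3 fell with P7 platelets (median 1.78) and 9 rose and 3 fell with adult platelets (median 0.94), each against control, and 7 were higher and 5 lower with P7 than with adult platelets (median -0.01). Without control replicate 2, 7 genes in place of 12 were called with adult platelets. Arg1, arginase 1, averaged 2.23 CPM with P7 platelets, 7.84 ± 2.33 with adult platelets and 0.265 ± 0.129 in control, and was lower with P7 than with adult platelets (log2 fold change -1.81 ± 0.30, adjusted p = 0.00159). Mmp14, a membrane matrix protease, averaged 226 ± 1.47 CPM with P7 platelets, 56.9 with adult platelets and 16.7 ± 3.72 in control (3.76 ± 0.30 for P7 platelets over control, adjusted p = 8.13e-06). Clec10a, a galactose-binding lectin receptor and a standard marker of this state, fell with P7 platelets (5.73 ± 0.401 CPM, against 10.96 ± 0.603 in control, -0.94 ± 0.10, adjusted p = 3.74e-05). Mrc1 itself, as given above, did not pass in any comparison.

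**Figure D5:**
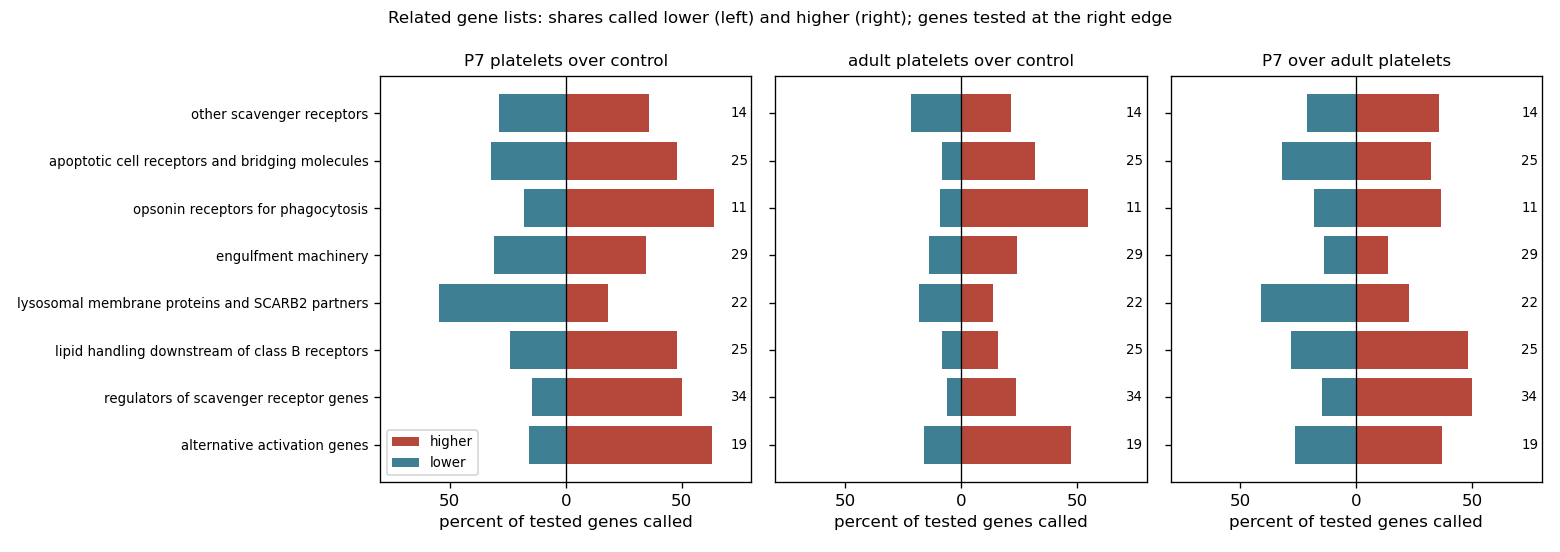
Share of tested genes called higher (right, red) and lower (left, blue) in 8 related gene lists (rows) for P7 platelets over control, adult platelets over control and P7 over adult platelets (panels from left to right). Numbers at the right edge are the genes tested per list. With P7 platelets over control, 12 of 22 lysosomal genes were called lower, beside 29.3% of all tested genes. In the opsonin receptor list 7 of 11 genes were called higher, beside 29.9% of all tested genes.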

How the data were processed

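Polyadenylated RNA of mouse monocytes was sequenced in 9 libraries, from 100 ng of RNA each, as 75 nt single ends with a strand-marking kit, per the labels' protocols. The deposited values are raw counts that the authors made per gene symbol. Tools listed in the submitters' processing notes are Salmon 1.3.0, STAR 2.7.6a, featureCounts, Subread 2.0.1 and fastp 0.20.1. Genome build, annotation and counting strand were not given in the sources used here. Positions and exon lengths come from GENCODE M21, which holds 53292 of the 55367 symbols and all 8 receptors.

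The counts were fitted with edgeR 4.0.16 in R 4.3.3 (TMM factors of 0.882 to 1.10, filterByExpr by group with a minimum count of 10, 1 quasi-likelihood model of the 9 libraries, each group with its own mean). The fit kept 13707 genes, with 6 residual degrees of freedom. The threshold for a call was 0.05 on the p adjusted by Benjamini-Hochberg within each comparison. The 3 contrasts set P7 platelets against control, adult platelets against control, and P7 against adult platelets. Totals of 29687341 to 37065564 counts per library limit the precision only for scarce transcripts such as Marco, and the interval of the Marco ratio and the floors hold counting error alone, because PCR copies are not independent molecules. Intervals of log2 fold changes come from the quasi-likelihood fit and include the spread between libraries. The method was tested on simulated data: of genes changed 1.5-fold, 65, 66 and 66% were called in those contrasts, and of genes changed 2-fold, 93, 88 and 86%. The changed genes were drawn from those with a mean of at least 50 counts, so these shares do not cover scarcer genes such as Marco. Only 100 genes per fold were changed among the 13707, a far smaller share than was called in the data. Recovery in the data may therefore differ.

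The receptors, the 8 related lists and the 12 marker lists were chosen with earlier results of these data known. The rule for naming took every receptor, up to 3 higher and 3 lower called genes of a list and contrast by p with a mean log2 CPM of at least 1, the top gene of each marker list, Igkc, and the 3 genes nearest to each receptor's profile, and values are given for some of these. Spi1, Nt5dc2, Stab2, Cdh5, Kdr, Clec4g, Emcn, Ptprb, Robo4, Timd4, Spic, Siglec1 and Cd163 were added after their values were seen.

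The alternatives varied the scaling (size factors of DESeq2, upper quartile), the filter (none, or a mean of at least 50 counts) and the test (limma-voom of limma 3.58.1, the Wald test of DESeq2 1.42.0, glmTreat against a fold of 1.2). Others added the replicate number as a block or log2 Igkc CPM as a covariate, fitted 2 groups alone, dropped platelet, erythroid and mitochondrial transcripts, or left out 1 library. Replicate numbers come from the sample titles. Deviations from the group means correlated between same-numbered P7 and control libraries (r = 0.576, 0.209 and 0.335 over 13707 genes for replicates 1, 2 and 3). Each exceeds 0.1, and by that rule the numbers were taken to pair these groups. Libraries with unlike numbers gave -0.464 to 0.307, with 0.205 and 0.307 between replicates 2 and 3, so replicate 1 alone was set apart by its number. No libraries of a group agreed within sampling noise (chi-square per degree of freedom 4.81 to 39.8), and none was left out.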

Additional observations from a re-analysis of the deposited data

How the results depend on the processing

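Of the receptor fold changes refitted under the alternatives, 426 values kept direction and side of the threshold, 20 lost their call and 12 gained one. No called receptor reversed. Counts of receptors here are out of 8. They include Marco in both P7 comparisons, where it had to differ once it was tested, so its calls there say nothing about stability. The calls for Stab1, Msr1, Cd36 and Scarb2 with P7 platelets over control held in every alternative run, with adjusted p for Cd36 of at most 0.031. Those for Stab1 and Msr1 with adult platelets over control also held in every one. Against a fold of 1.2 with glmTreat, 5185 of the 13707 tested genes and 5 receptors were called for P7 platelets over control. The calls were 1120 genes and 2 receptors for adult platelets over control, and 2552 genes and 1 receptor for P7 over adult platelets. That 1 receptor was Marco, and none of the others passed between P7 and adult platelets. Leaving out single libraries gave 7101 to 8482 genes and 5 to 6 receptors for P7 platelets over control. For adult platelets over control it gave 2031 to 3774 genes and 4 to 5 receptors, against 3617 genes with all libraries, with 2031 without control replicate 2 and 2207 without control replicate 3. For P7 over adult platelets it gave 3978 to 5540 genes and 2 to 5 receptors, with 3 receptors without adult platelet replicate 3 or P7 replicate 1 and 2 without P7 replicate 2 or 3. The cause was not tested. Fewer libraries also leave fewer degrees of freedom.

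With upper-quartile scaling the median log2 fold change of all genes was -0.115 for P7 platelets over control, against -0.0137 with TMM, and the fold changes of single genes stand relative to that shift.

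With the replicate number as a block, 8565 genes and 6 receptors were called for P7 platelets over control, the added one being Scarb1. Adult platelets were not taken to pair with control (r = 0.557, 0.346 and -0.0768 for replicates 1, 2 and 3) or with P7 platelets (r = 0.486, 0.281 and -0.0813). Only replicate 3 fell short of the rule of 0.1 there. Replicate 1 libraries correlated in all 3 comparisons, at 0.576 for P7 platelets with control. The block there gave 4228 genes and 5 receptors for adult platelets over control, where Scarb1 passed (log2 fold change -0.16, adjusted p = 0.0324, over a range of 0.0100 to 1 in the alternatives), and 5965 genes and 5 receptors for P7 over adult platelets. The block changed no other receptor's call.

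Of the gene list counts, 460 stayed within 1.5 times their value and 20 did not. Depth limits Marco, which a filter at a mean of 50 counts removed.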
